A study of Mus musculus with 4 samples.

Results

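G-CSF, KC and MIP-2 are the neutrophil-directed proteins chosen by name from a serum panel of 32 proteins, and each of 4 arrays held a value for all 3. They were compared between 2 sera of male C57BL/6 mice with experimental autoimmune encephalomyelitis (EAE), a mouse model of multiple sclerosis in which immune cells attack the brain and spinal cord, and 2 sera of male C57BL/6 mice that the series calls vehicle controls. Each serum was put on 1 antibody array, where spotted capture antibodies bind proteins and a biotin label makes them visible. The sources used here do not give the way EAE was induced, the disease stage, the age of the mice or the content of the vehicle. The labels describe serum gathered into a single tube without the number of mice per sample, so the spread between samples, on which every p-value rests, may be technical. The panel holds no protein that defines serum, so the labelled material could not be checked against markers.

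G-CSF, encoded by Csf3, is the growth factor that drives the production of neutrophils in the bone marrow and their release into blood. KC and MIP-2, encoded by Cxcl1 and Cxcl2, are chemokines that attract neutrophils through the receptor CXCR2. In the mouse, neutrophils are recruited to the inflamed central nervous system along CXCR2, and T helper 17 cells can raise all 3 factors by way of IL-17. The array names G-CSF, KC and MIP-2 each stand among the RefSeq synonyms of these genes (GRCm38.p6). Cxcl1 and Cxcl2 are neighbours on chromosome 5 with 0 annotated genes between them, and Csf3 lies on chromosome 11.

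Cxcl1 and Cxcl2 also share letters just upstream of their starts. The promoter table of RefSeq (GRCm38.p6) held windows of both, and the 100 bases before each start are shown to let these CXCR2 ligand genes be compared. Capitals mark the longest run of letters that both stretches share, GGGAATTTCCCTGG, which holds a motif of the NF-kappaB type.
Cxcl1, chr5:90891145-90891244, plus strand: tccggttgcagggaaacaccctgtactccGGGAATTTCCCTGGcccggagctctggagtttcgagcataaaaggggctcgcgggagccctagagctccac
Cxcl2, chr5:90903799-90903898, plus strand: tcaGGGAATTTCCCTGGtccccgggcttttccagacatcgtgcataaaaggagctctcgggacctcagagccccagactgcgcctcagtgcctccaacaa
The run has 14 bases and began 71 bases before the start of Cxcl1 and 97 bases before that of Cxcl2. Searched on both strands, it lay in 2 of the 32851 windows of the table (0.00609%), those of Cxcl1 and Cxcl2, where each window runs from 250 bases before to 50 bases after a start. It was found by comparing these windows, so the share is a description. The array measured serum protein and no transcript.

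Values are given on 3 scales. Intensity is the brightness of a spot as deposited, in arbitrary units. Brightness is log2 of the intensity over the positive-control average of the same array, and it keeps the background of the support. Normalised signal is the ratio deposited by the authors, in which the blank average of an array is 0 and its positive control is 1. The positive control averaged 51232 ± 1445 on EAE arrays and 53743 ± 649 on control arrays (SD, n = 2 each). The background rows differed little, with a blank average of 9866 ± 164 in EAE and 9924 ± 22.2 in control, and a negative-spot average of 10430 ± 148 in EAE and 10529 ± 315 in control. A further blank row is not marked as an average and is called the single blank here, though its number of spots was not checked. At 11221 ± 190 in EAE and 11042 ± 177 in control, it was the brightest background value on every array. A protein at or below it is called not above background here. By that measure 7 and 8 of the 32 proteins were not above background on the EAE arrays and 0 on either control array.

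All 3 members were lower in EAE serum than in control serum relative to the positive control, and the groups did not overlap for any of them. The sizes depended on the scale. In brightness the 3 falls were alike, at 1.36-fold for KC, 1.42-fold for G-CSF and 1.44-fold for MIP-2. That scale keeps the background, so the fall of a dim spot is understated on it. The blank average equalled 95.9% and 92.6% of the G-CSF spot in EAE, 82.7% and 90.7% of KC, and 39.6% and 41.6% of MIP-2. In normalised signal MIP-2 had an EAE mean of 56.9% of the control mean. G-CSF on both EAE arrays and KC on 1 of them were not above background. With those values at their bounds the mean fall was at least 3.21-fold for G-CSF and 3.25-fold for KC, against 1.76-fold for MIP-2. The bounds allow for the dim EAE spots and not for the spread between control sera, which was 1.75-fold for G-CSF. The falls of the 3 members belong to a shift of nearly the whole panel. On the brightness scale 90.6% of the 32 proteins passed as lower in EAE (limma, Benjamini-Hochberg adjusted p under 0.05), and on the normalised-signal scale 93.8% did. In both, 96.9% of proteins had groups that did not overlap. The 3 of 3 members called lower are therefore near the background of the panel.

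**Figure D1:**
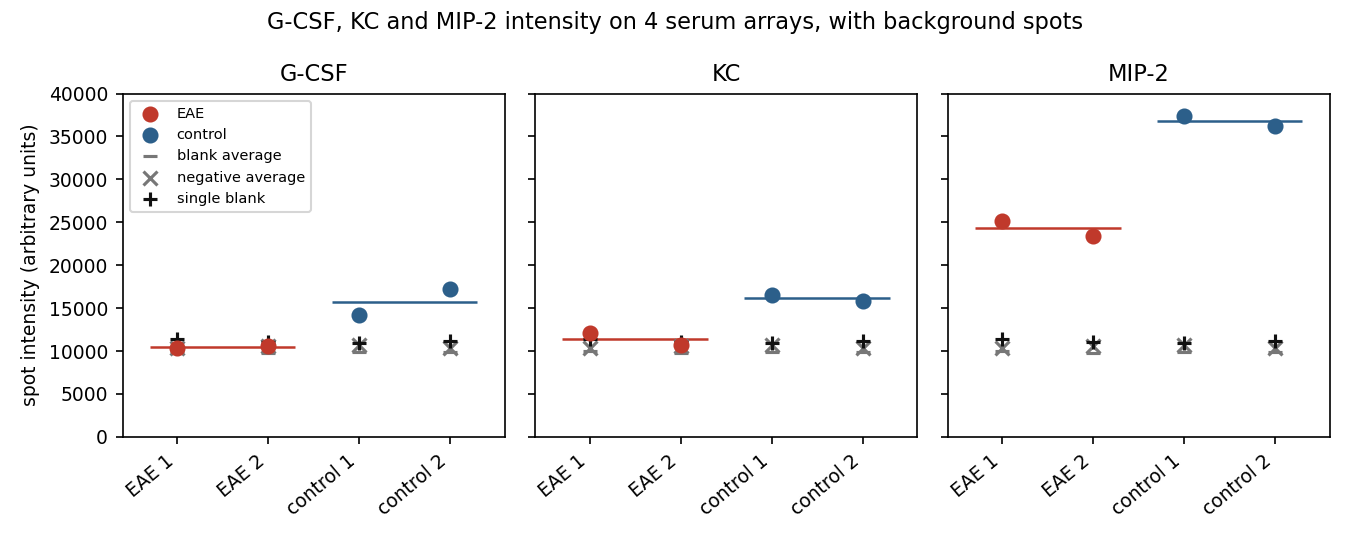
Spot intensity (arbitrary units) of G-CSF, KC and MIP-2 on 2 EAE arrays and 2 control arrays, one point per array, with group means as lines and the 3 background values of each array as grey and black marks. EAE points of G-CSF lie among the background marks and those of KC near them, whereas MIP-2 stays at 23435 or above on every array.

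G-CSF had intensities of 10408 and 10533.5 on the EAE arrays, against 14198.5 and 17191 on the control arrays. Both EAE spots were as dim as spots without antibody. Relative to the negative-spot average the spot stood at 82 units on EAE 1 and at -1.25 units on EAE 2. Relative to the single blank it stood at -947 units on EAE 1 and at -553.5 units on EAE 2. Both control spots stood clear of background, at 3282 and 6023.5 units above the single blank. In normalised signal G-CSF was 0.0101 and 0.0194 in EAE, against 0.0962 and 0.168 in control. The EAE level is thus an upper limit, and the bound of 3.21-fold comes from each EAE array set to the lowest normalised signal among proteins above background on it. The value as measured, 9.09-fold, rests on background spots.

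The control sera differed among themselves in G-CSF. Control 2 had 1.75 times the normalised signal of control 1, the second widest gap between controls among the 32 proteins, whose median gap was 1.21-fold. The brightness difference was -0.51 ± 0.12 (limma SE, 95% interval -0.84 to -0.17, adjusted p = 0.0168). Over the 4 pairs of an EAE with a control array it ran between -0.70 and -0.32. The call was lost without EAE replicate 1 (-0.47, limma adjusted p = 0.0803) and without EAE replicate 2 (-0.55, adjusted p = 0.0649), where the lone EAE array left is taken to vary as much as the controls do. In log2 normalised signal both omissions kept the call, on EAE values that are not above background. On the linear normalised-signal scale the difference was -0.117 (limma adjusted p = 0.0223).

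KC had intensities of 12065.5 and 10751 in EAE, against 16580.5 and 15873.5 in control. KC stood at 710.5 units relative to the single blank on EAE 1 and at -336 units on EAE 2, where it was 216.25 units above the negative-spot average. So 1 of 2 EAE arrays measured KC above background. Normalised signals were 0.0493 and 0.0248 in EAE, against 0.150 and 0.138 in control. In normalised signal the 2 control sera were close, 1.09-fold apart, and the 2 EAE sera differed more, 1.99-fold apart. Counted from the widest EAE gap of the panel this was rank 4, with EAE 2 not above background. In brightness the EAE gap was 0.11 on the log2 scale, at rank 8, against 0.04 between the control sera.

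The brightness difference of KC was -0.44 ± 0.07 (limma SE, 95% interval -0.62 to -0.26, adjusted p = 0.00543). In log2 normalised signal it was -2.04 ± 0.37 (limma SE, adjusted p = 0.00268), or 4.11-fold lower. With EAE 2 at the lowest value above background, KC was 3.25-fold lower. On the linear scale KC fell by 0.107 of the distance between blank and positive control (limma adjusted p = 0.00921). The choice of background mattered here, since subtracting the negative-spot average in place of the blank average gave -3.13 with an adjusted p of 0.0545 (limma).

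MIP-2 had intensities of 25192.5 and 23435 in EAE, against 37429 and 36157.5 in control. Its spot was the brightest of the 32 on both EAE arrays and on control 1, and the second brightest on control 2. Spot brightness also reflects the antibody and does not rank proteins by amount. MIP-2 was the one member above background on all 4 arrays, by 12348 units or more. Normalised signals were 0.360 and 0.338 in EAE, against 0.621 and 0.605 in control.

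Replicates of MIP-2 were the closest of the 3 members, 1.06-fold apart in EAE and 1.03-fold apart in control. The brightness difference was -0.53 ± 0.05 (limma SE, 95% interval -0.68 to -0.38, adjusted p = 0.00283). In log2 normalised signal it was -0.81 ± 0.24 (limma SE, adjusted p = 0.0155), or 1.76-fold lower. That second call was lost without control replicate 1 and without control replicate 2, with differences of -0.79 and -0.83. There the lone control array left is taken to vary as much as the EAE arrays do. The brightness differences without the same arrays were -0.52 and -0.54. An exact permutation test of 2 against 2 arrays has 6 arrangements and gave p = 0.333 for each member in brightness, the smallest two-sided value it allows.

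The place of the members within the panel turned with the scale. Counted from the most lowered of 32 proteins, G-CSF was at rank 3 in log2 normalised signal, at rank 20 in brightness and at rank 22 in linear normalised signal. MIP-2 ran the other way, at rank 28 in log2 normalised signal, at rank 17 in brightness and at rank 5 in linear normalised signal, where it fell by 0.264. KC held ranks 11, 24 and 23 on these scales. In log2 normalised signal the rank of G-CSF rests on 2 EAE values, and that of KC on 1, that are not above background. At the bound the difference moved from -3.18 to -1.68 for G-CSF and from -2.04 to -1.70 for KC, beside a panel median of -1.53 at the bound. The panel median was -0.54 in brightness, -1.84 in log2 normalised signal and -0.162 in linear normalised signal.

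**Figure D2:**
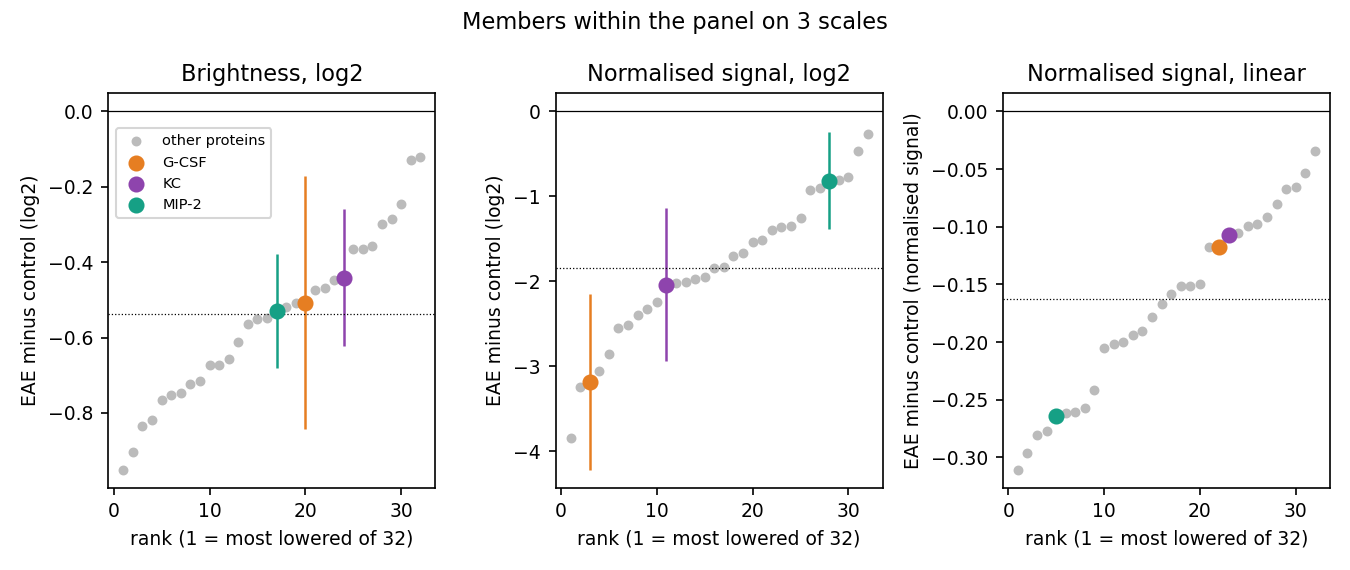
EAE minus control for 32 proteins, sorted from the most lowered (rank 1), in log2 brightness, log2 normalised signal and linear normalised signal; coloured points are the members, bars on the log2 scales are 95% limma intervals and dotted lines are panel medians. G-CSF and MIP-2 exchange sides of the median between the log2 and the linear normalised signal.

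Setting the arrays to the same median removed a brightness shift of -0.66, and relative to it no member was lower. The differences became 0.16 for G-CSF, 0.22 for KC and 0.13 for MIP-2 with adjusted p of 0.329, 0.11 and 0.219 (limma), beside a panel median of 0.12, while 12.5% of proteins passed as higher. Quantile normalization gave -0.12 for G-CSF, 0.06 for KC and 0.04 for MIP-2, none past the threshold. In log2 normalised signal centred on its median, which removed a shift of -2.01, MIP-2 came out at 1.19, higher in EAE (limma, adjusted p = 0.00563), where 21.9% of proteins passed as higher and 9.38% as lower, and the panel median was 0.17. KC was then at -0.03 (limma adjusted p = 0.977) and G-CSF at -1.18 (adjusted p = 0.0659). The median normalised signal was 0.0659 and 0.0556 on the EAE arrays, against 0.236 and 0.250 on the control arrays. Those EAE medians lay near the lowest values above background, 0.0395 and 0.0397. Before centring, MIP-2 had an EAE mean of 56.9% of the control mean.

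KC and MIP-2, the 2 CXCR2 ligands of the panel, were also set against each other within each array. Their antibodies differ, so a ratio of spots is not a ratio of protein amounts, but its change between groups can be compared. Without background subtraction the KC spot had 0.479 and 0.459 of the MIP-2 intensity in EAE, against 0.443 and 0.439 in control. The ratio was higher in EAE on both arrays, by 0.09 on the log2 scale (exact two-sided permutation p = 0.333, the smallest possible). After the blank average was subtracted the ratio was 0.137 and 0.0732 in EAE, against 0.242 and 0.227 in control. Now it was lower in EAE on both arrays, by 2.34-fold (exact two-sided permutation p = 0.333).

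The direction of the KC to MIP-2 change was thus set by the background that was removed. Blank-level signal equalled 82.7% and 90.7% of the KC spot in EAE, against 60.0% and 62.4% in control. For MIP-2 it equalled 39.6% and 41.6% in EAE, against 26.6% and 27.4% in control. When a growing part of the blank average was subtracted, the group means were equal at 33.0% of it. The groups did not overlap with up to 15% subtracted, with KC to MIP-2 higher in EAE, overlapped between 20% and 50% in steps of 5%, and did not overlap from 55% on, with the ratio lower in EAE.

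With the whole blank average removed, the fall of the ratio kept its direction where KC on EAE 2 was raised to the lowest value above background. The ratio was then 0.137 and 0.117 in EAE, against 0.242 and 0.227 in control, 1.85-fold lower. Subtracting the negative-spot average gave 0.117 and 0.0168 in EAE, against 0.218 and 0.215 in control. The 2 EAE arrays were far apart on that scale, as KC stood 216.25 units above the negative spots there and 1739.5 units above them on EAE 1. With the single blank subtracted, KC on EAE 2 fell below 0 and no ratio was formed.

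**Figure D3:**
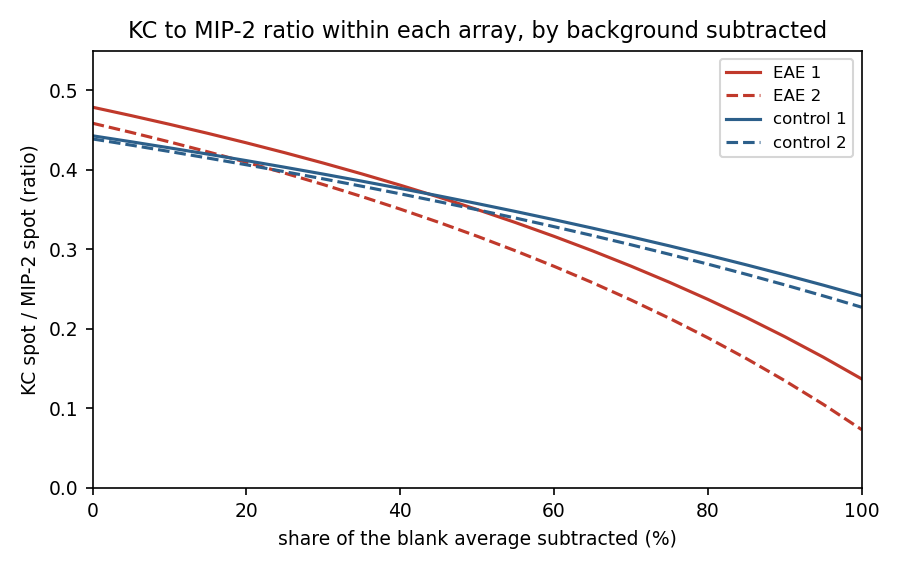
Ratio of the KC spot to the MIP-2 spot within each array (vertical axis) against the share of the blank average subtracted from both (horizontal axis, percent), one line per array. EAE lines start above the control lines at 0.479 and 0.459 and end below them at 0.137 and 0.0732.

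The protein most like G-CSF over the 4 arrays was IL-17, with a distance of 0.08 between mean-centred log2 brightness profiles, followed by MCP-1 at 0.19. The median distance of G-CSF to the other 31 proteins was 0.30. IL-17 had intensities of 10402 and 9987.5 in EAE, against 13797.5 and 15960 in control, so both proteins were not above background in EAE and both were brighter in control 2 than in control 1. KC was nearest to TIMP-1, an inhibitor of matrix metalloproteinases, at 0.02, and to IFN-gamma at 0.08. MIP-2 was nearest to MIP-3beta, a CCR7 ligand, at 0.04, and to the CC chemokine MIP-1alpha at 0.08. KC and MIP-2 were 0.10 apart and each the fifth nearest of the other, while G-CSF was 0.28 from KC and 0.25 from MIP-2. Profiles of 4 arrays that share a panel-wide shift describe likeness only.

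Other panel proteins tied to neutrophils were read from a list of 5. These are IL-17 and TNF-alpha, which induce G-CSF and CXCR2 ligands, IL-6 and GM-CSF, which support the production or activation of myeloid cells, and MIP-1alpha, which also attracts mouse neutrophils. All 5 were lower in EAE past the threshold in brightness and in normalised signal (limma), where 90.6% and 93.8% of all proteins were, with a median brightness difference of -0.56 beside -0.54 over all 32 proteins. With arrays scaled to the same median none of the 5 passed in brightness, and IL-17 (0.19), IL-6 (0.10) and MIP-1alpha (0.14) turned higher. In log2 normalised signal with that scaling IL-17 stayed lower, at -1.84 (limma adjusted p = 0.00339), on EAE values that are not above background. The others did not pass there, with IL-6 at 0.16, MIP-1alpha at 0.62, GM-CSF at 0.35 and TNF-alpha at -0.39. The brightness calls of GM-CSF and IL-17 were also lost without EAE replicate 1 and without EAE replicate 2, with limma adjusted p between 0.0577 and 0.0649. GM-CSF was at -0.82 in brightness, or -0.58 without control replicate 2, with intensities of 15622.5 and 14941 in EAE, against 24144.5 and 33042.5 in control. TNF-alpha was at -0.75, with 12316.5 and 11389.5 in EAE, against 20114 and 21617.5 in control. IL-6, at -0.56, had 12238.5 and 12270 in EAE, against 19326.5 and 18713 in control. MIP-1alpha was at -0.52 and IL-17 at -0.47, beside -0.51 for G-CSF, -0.44 for KC and -0.53 for MIP-2. GM-CSF stayed 3854 units or more above the single blank on the EAE arrays.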

How the data were processed

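The deposited intensity values of 4 samples are spot brightness per protein. The positive, blank-average and negative rows are averages of several spots, per the file headers. The blank rows show that background was not subtracted, and the positive averages differ between arrays, from 50210 to 54201.5. The ratio table deposited by the authors was recomputed as (intensity − blank average) / (positive average − blank average), with a largest deviation of 1.2e-07. The scanner and its image software were not named in the labels or files.

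All 32 proteins entered 1 linear model with the group as its only term (limma 3.58.1 in R 4.3.3, 2 residual degrees of freedom per protein), with Benjamini-Hochberg adjustment over the panel and a threshold of 0.05. KC against MIP-2 was tested by an exact permutation over samples (scipy 1.17.1). The fit was tested on simulated data in which a minority of the proteins was lowered and the noise was independent. That simulation held no shift of the whole panel, so it does not cover the shared fall seen here. The text names the 3 members, the list of 5 and, for each member, the 2 proteins with the nearest profile. Members and list were chosen with earlier results of these data known. The background definition, the bounds, the linear scale and the stepwise subtraction were chosen after seeing the data. The number of arrays limits the precision.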

Additional observations from a re-analysis of the deposited data

How the results depend on the processing

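Under every alternative that did not equalise the arrays each member stayed lower in EAE where a value could be had. Equalising them, which removes a shared shift by construction, ended the members' brightness calls. Median scaling gave 0.16 for G-CSF, 0.22 for KC and 0.13 for MIP-2 in brightness, and -1.18, -0.032 and 1.19 in log2 normalised signal. Quantile normalization gave -0.12, 0.062 and 0.043 in the same order. Normexp, which corrects for the blank average, kept G-CSF past the threshold but not KC (-1.20) or MIP-2 (-0.67). It turned KC minus MIP-2 in brightness to -0.53. The stepwise subtraction had that sign from 35% of the blank average on. The cause of the lower signal in EAE was not tested. The count of proteins past the limma threshold in brightness, 29, was 15 with normexp, 4 with median scaling and 1 with quantile normalization (0 lower in EAE by either scaling; at an unadjusted threshold of 0.05, 1 lower by each), and 19 to 30 with 1 array left out. The count of 30 in normalised signal was 10 under median scaling, 3 of them lower, and 25 to 30 with 1 array left out.

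Leaving out each array in turn gave brightness differences of -0.66 to -0.36 for G-CSF, -0.50 to -0.39 for KC and -0.55 to -0.51 for MIP-2, and in log2 normalised signal -3.66 to -2.71 for G-CSF, -2.54 to -1.54 for KC and -0.86 to -0.77 for MIP-2. KC minus MIP-2 ran between 0.06 and 0.12 in brightness and between -1.68 and -0.77 in log2 normalised signal. In normalised signal it was -1.68 without EAE 1 and -0.77 without EAE 2. Added settings gave -1.68 for G-CSF at its bound and, for KC minus MIP-2, 0.029, -0.087 and -0.35 with 25, 50 and 75% of the blank average subtracted. KC lost its call with the negative average subtracted (-3.13). G-CSF had no value with the negative average or the single blank subtracted or dim proteins left out, and KC none with the single blank. EAE and control samples share numbers in the labels, but nothing says that a number marks a pair, and their deviations correlated at -0.16 across proteins. The replicate block gave 30 calls on both scales and left member differences at -0.51, -0.44 and -0.53 in brightness and -3.18, -2.04 and -0.81 in normalised signal, all past the threshold; the crossed block gave 30 in brightness.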
